A study of Mus musculus with 13 samples.

Results

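H3K27ac ChIP–seq peak lists were examined at 10 genes that mark 2 states of melanoma cells, in 9 mouse melanoma cell lines. The invasive genes were Axl, Tcf4, Loxl2 and Tnc, and the neural crest-like genes were Ngfr, Aqp1, Gfra2, L1cam, Slc22a17 and Tmem176b. They were chosen by name out of 21951 protein-coding genes, and peaks were collected over the body of each gene and 10 kb on each side. A peak list gives the stretches of the genome at which the mark passed a threshold. The measure used here is the covered kb, that is, the length of a window that lay under peaks. A promoter was called in a line when a peak came within 1 kb of an annotated transcription start of the gene.

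The lines were established from melanomas of C57BL/6J mice that carried Tyr::NRAS Q61K, were Cdkn2a+/- and had both copies of the E-cadherin gene Cdh1 flanked by loxP sites. The Ecad lines came from mice without Cre. The ΔEcad lines came from mice with Tyr::CreA, in which the tyrosinase promoter drives Cre in the melanocyte lineage. Male Ecad lines were Ma_1007 and Ma_1181, female Ecad lines Ma_1014 and Ma_1039, male ΔEcad lines Ma_1062 and Ma_1456, and female ΔEcad lines Ma_1057, Ma_1064 and Ma_1069. Each line came from 1 tumour culture and gave 1 list, so the spread below is between lines. All lines came from mice with the NRAS transgene and a heterozygous Cdkn2a allele, and the state of Cdkn2a in the lines themselves was not examined here. The age of the mice is not given in the labels.

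Melanoma cells can move between a pigmented state and less differentiated ones. In the invasive state, cells lose pigment genes and express receptor kinases such as AXL together with matrix genes. In the neural crest-like state, they express genes of the embryonic cells from which melanocytes derive, with the neurotrophin receptor NGFR as the usual marker. H3K27ac, acetylation of lysine 27 of histone H3, marks active promoters and enhancers, and long clusters of it mark genes under strong enhancer control.

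The lists differed in length. They held 20741 to 41663 peaks and covered 29.5 to 67.2 Mb, the longest being Ma_1007 and the shortest Ma_1069, and the 3 female ΔEcad lists covered 29.5 to 39.5 Mb. Read counts are not part of these lists and sequencing depth is unknown, so a gene without a peak is not thereby a gene without the mark. Of 15380 genes with a peak in any list, the median difference in covered kb was −0.50 kb between ΔEcad and Ecad lines and −0.68 kb between female ΔEcad lines and the other 6, so most genes had less covered length in these groups. Of 10 melanocytic marker promoters, 7 to 10 were called in each list. Each list called 0 or 1 promoter of the 7 fibroblast, the 4 endothelial, the 5 leukocyte and the 3 keratinocyte markers, and 1 to 3 of the 4 Schwann cell markers. Cdh1 itself had no promoter call in any of the 9 lists, and its window held 1.92 to 3.16 kb in the female ΔEcad lines against 4.45 to 8.79 kb in the others, which does not test the deletion.

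The promoters of these genes fell into 3 kinds. Tcf4 and Tmem176b were called in all 9 lists, as were 21.1% of all protein-coding genes. Axl was called in Ma_1007 alone, L1cam in Ma_1014 alone and Slc22a17 in Ma_1007 and Ma_1181, and 31.8% of genes shared such a call in 1 to 8 lists. Loxl2, Tnc, Ngfr, Aqp1 and Gfra2 were called in no list, as were 47.1% of genes. Ngfr and Gfra2 had no peak anywhere in their windows, which held for 29.9% of genes, so 8 of the 10 passed the filter of a peak in at least 1 list. RefSeq promoter sequence (GRCm38.p6, 250 bases before to 50 after a start) was found for 7 of the 10 genes. The sequences below show the kinds, with a promoter called in every list first, then L1cam and Axl with 1 list each, and Ngfr with none. Where RefSeq gave several starts, as at Tmem176b and L1cam, 1 promoter of the gene is printed. Capitals mark matches to the motifs described after them.
Tmem176b promoter (chr6:48841088-48841387, minus strand): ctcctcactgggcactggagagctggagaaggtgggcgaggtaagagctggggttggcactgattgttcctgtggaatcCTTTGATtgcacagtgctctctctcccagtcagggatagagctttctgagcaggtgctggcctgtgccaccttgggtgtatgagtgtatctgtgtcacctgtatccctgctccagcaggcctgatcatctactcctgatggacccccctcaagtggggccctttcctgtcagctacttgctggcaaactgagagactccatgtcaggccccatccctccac
L1cam promoter (chrX:73880785-73881084, minus strand): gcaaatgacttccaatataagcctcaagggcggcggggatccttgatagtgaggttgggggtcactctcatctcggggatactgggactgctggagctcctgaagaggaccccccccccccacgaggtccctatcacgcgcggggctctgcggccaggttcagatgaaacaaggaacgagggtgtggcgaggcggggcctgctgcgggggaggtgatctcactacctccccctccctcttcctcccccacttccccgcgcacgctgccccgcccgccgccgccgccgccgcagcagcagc
Axl promoter (chr7:25788684-25788983, minus strand): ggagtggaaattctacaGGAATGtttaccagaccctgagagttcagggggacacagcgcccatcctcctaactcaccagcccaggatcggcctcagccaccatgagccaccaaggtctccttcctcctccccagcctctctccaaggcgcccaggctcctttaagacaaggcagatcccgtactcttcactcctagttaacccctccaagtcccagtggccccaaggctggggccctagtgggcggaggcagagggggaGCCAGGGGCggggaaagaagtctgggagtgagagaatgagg
Ngfr promoter (chr11:95587649-95587948, minus strand): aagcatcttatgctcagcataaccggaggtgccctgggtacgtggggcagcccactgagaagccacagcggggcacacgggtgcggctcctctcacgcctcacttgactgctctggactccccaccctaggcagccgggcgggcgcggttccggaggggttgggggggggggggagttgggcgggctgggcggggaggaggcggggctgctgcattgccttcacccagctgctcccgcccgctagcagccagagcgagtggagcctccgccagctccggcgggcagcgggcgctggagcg

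The letters searched, on both strands, were TGANTCA for AP-1, GGAATG for TEAD, CTTTGAT for TCF/LEF, ACAAAG for SOX, CACGTG for an E-box and GCCNNNGGC for TFAP2. The Axl promoter held the TEAD and the TFAP2 letters, the printed Tmem176b promoter held the TCF/LEF letters, and the L1cam and Ngfr promoters held none of the 6. The other RefSeq promoters of Tmem176b did not hold the TCF/LEF letters. The one starting at chr6:48840939, under a peak in 9 lists, held none of the 6. The one starting at chr6:48841325, under a peak in 7 lists, held the TEAD letters. Over all 32841 RefSeq promoters, 14.7% held the TEAD letters, 16.6% the TFAP2 letters and 3.73% the TCF/LEF letters. CpG content differed widely between these promoters. The printed Tmem176b promoter had 1 CpG in 300 bases, and its unprinted ones had 2 and 4. The Axl promoter had 6, whereas the Ngfr promoter had 23 and the printed L1cam promoter 22. The observed over expected CpG ratio was 0.607 at Ngfr and 0.657 at L1cam. Of all promoters with a ratio of at least 0.6, 71.8% overlapped a peak in some list, against 15.8% of those below it. Ngfr was among the 28.2% of CpG-rich promoters without a peak in any list, and the printed Tmem176b promoter among the 2.76% of CpG-poor promoters with a peak in all 9.

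Peaks of the 9 lists merged into 49 elements over the 10 windows, of which 28 lay over Tcf4, 7 over Loxl2, 4 each over Axl and Slc22a17, 2 each over L1cam and Aqp1 and 1 each over Tnc and Tmem176b. The stretches printed here are the 200 bases around the summit of the best-ranked peak, from GRCm38, at elements whose presence differed between lines. The Loxl2 element was called in 4 lists, all of them Ecad. The Axl and Tnc elements were called in the same 4 lists, Ma_1007, Ma_1014, Ma_1039 and Ma_1456. The L1cam element was called in Ma_1014, Ma_1039 and Ma_1456.
Loxl2 intronic element (chr14:69639122-69639321, plus strand): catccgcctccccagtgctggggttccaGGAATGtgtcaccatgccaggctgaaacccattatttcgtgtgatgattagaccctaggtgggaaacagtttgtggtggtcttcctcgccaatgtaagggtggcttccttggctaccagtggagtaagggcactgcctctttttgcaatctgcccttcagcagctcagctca
Axl element (chr7:25781211-25781410, plus strand): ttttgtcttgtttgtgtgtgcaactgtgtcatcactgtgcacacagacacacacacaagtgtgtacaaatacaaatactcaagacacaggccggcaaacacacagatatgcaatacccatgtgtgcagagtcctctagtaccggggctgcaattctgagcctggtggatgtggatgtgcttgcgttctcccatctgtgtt
Tnc intronic element (chr4:64002693-64002892, plus strand): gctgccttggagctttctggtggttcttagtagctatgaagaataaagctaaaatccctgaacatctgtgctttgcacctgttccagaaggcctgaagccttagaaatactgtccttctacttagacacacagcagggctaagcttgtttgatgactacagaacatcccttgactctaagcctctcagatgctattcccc
L1cam intronic element (chrX:73875644-73875843, plus strand): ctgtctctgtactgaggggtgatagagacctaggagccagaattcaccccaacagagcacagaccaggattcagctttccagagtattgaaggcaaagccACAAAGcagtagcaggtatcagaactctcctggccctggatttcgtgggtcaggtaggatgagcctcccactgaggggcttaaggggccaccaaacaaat
The Loxl2 stretch held the TEAD letters and the L1cam stretch the SOX letters, which 10.7% and 17.7% of 59644 such stretches over the genome held. The Axl and Tnc stretches held none of the 6.

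Tcf4 (chr18:69343356-69689079, plus strand) encodes an E-protein, a basic helix-loop-helix transcription factor that pairs with other such factors and is held back by ID proteins. It is also called E2-2 and is not the Wnt effector TCF7L2, which shares the old name TCF4. Its window of 365.7 kb was covered for 16.02 kb in Ma_1007 and 13.6 kb in Ma_1181. The female Ecad lines Ma_1014 and Ma_1039 had 13.2 kb and 13.1 kb. The male ΔEcad lines had 23.1 kb in Ma_1062 and 22.7 kb in Ma_1456. The female ΔEcad lines had 48.3 kb in Ma_1057, 35.1 kb in Ma_1064 and 31.4 kb in Ma_1069.

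All 5 ΔEcad lines were above all 4 Ecad lines at Tcf4, and all 3 female ΔEcad lines were above the other 6. ΔEcad lines averaged 32.1 ± 10.5 kb (SD, n = 5) and Ecad lines 14.0 ± 1.37 kb (SD, n = 4), a ratio of 2.30 (exact two-sided permutation test, p = 0.0238, adjusted p = 0.252 over all genes). This difference of 18.2 kb ranked 2 from the top of 15380 genes. Ranks here are by kb, which leaves long windows more room for large differences. The Tcf4 window was 365.7 kb, and those of the other genes examined were 26.8 to 109.7 kb. No rank scaled to window length was made. Female ΔEcad lines averaged 38.3 ± 8.87 kb (SD, n = 3) and the other lines 17.0 ± 4.74 kb (SD, n = 6), a difference of 21.3 kb that ranked 8 from the top. Its exact p of 0.0119 was the smallest that 84 splits allow, and its adjusted p was 0.0914, a value shared with every gene at the smallest p. A limma fit of log2(kb + 0.5), which borrows the spread across genes, put Tcf4 past the threshold in that contrast, at a log2 difference of 1.17 ± 0.28 (SE, adjusted p = 0.019). Under that fit 0.754% of genes were higher past the threshold. By limma the ΔEcad against Ecad difference had an adjusted p of 0.117.

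Longer coverage in ΔEcad lines was uncommon over the genome. Groups did not overlap, with ΔEcad higher, at 0.091% of genes, and with female ΔEcad higher at 0.774%. An unadjusted exact p under 0.05 with the higher value in ΔEcad was found at 0.273% of genes, and with the higher value in female ΔEcad at 1.47%. Tcf4 was the only one of the 8 genes with a peak among either set. With covered kb taken as a share of each list's length and scaled to the mean list, Tcf4 differed by 26.1 kb (exact p = 0.0159, adjusted p = 0.456) and by 32.3 kb (exact p = 0.0119, adjusted p = 0.15) in these contrasts. On that scale, calls with an unadjusted p under 0.05 were higher for 318 and lower for 1229 genes between ΔEcad and Ecad lines, against 42 and 2642 on the unscaled one. Between female ΔEcad lines and the others they were 789 and 2082 against 226 and 3860, and between the sexes 163 and 1074 against 45 and 1835.

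**Figure D1:**
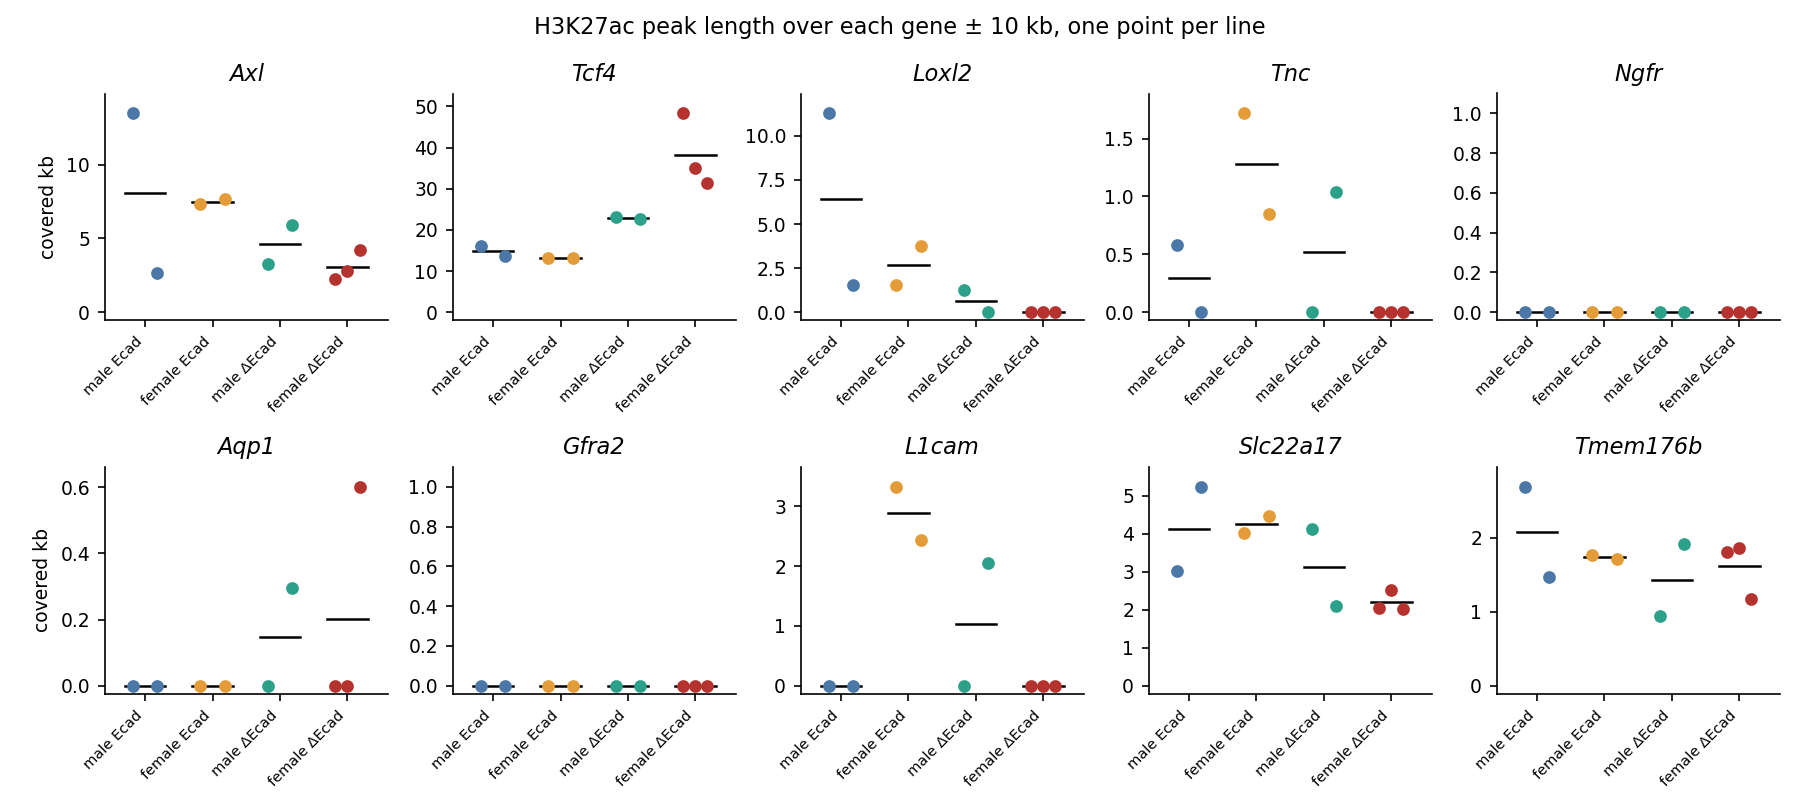
Covered kb (y axis, a scale of its own for each gene) over each of the 10 genes and 10 kb on each side, by group (x axis). Each point is 1 line and each bar the group mean. Tcf4 was longest in the 3 female ΔEcad lines (31.4 to 48.3 kb), Loxl2 was at 0 in them, and Ngfr and Gfra2 were at 0 in all 9 lines.

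Most of the extra length lay in the 3′ part of the gene. The gene was divided at its midpoint. Over the 5′ part, with 10 kb upstream, ΔEcad lines had 4.82 to 8.00 kb and Ecad lines 2.69 to 6.57 kb, and these ranges overlapped. Over the 3′ part, with 10 kb downstream, Ecad lines had 9.45 to 10.5 kb, male ΔEcad lines 14.7 and 16.6 kb and female ΔEcad lines 23.9 to 41.6 kb. The element at the first start, 1.91 kb into the gene, was called in all 9 lists and was shorter in the female ΔEcad lines, at 1.36 to 1.72 kb, than in the others, at 2.29 to 2.77 kb. Chromosome 18 took 2.59 to 3.67% of the covered length of a list, and in the 1 Mb on each side of the window female ΔEcad lines had 14.2 to 18.5 kb and the other lines 14.3 to 27.5 kb. Per Mb covered by the list, these flanks held 0.54 kb in Ma_1057, 0.36 kb in Ma_1064 and 0.545 kb in Ma_1069, and 0.374 to 0.441 kb in the other 6 lines. On that scale 2 of the 3 female ΔEcad lines were above the others, and the part of the flanks in the Tcf4 result was not tested.

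The number of Tcf4 elements called was 22 in Ma_1057, 17 in Ma_1069 and 14 in Ma_1064. It was 13 in Ma_1456 and 11 in Ma_1062, and 6 to 9 in the Ecad lines. Of the 28 elements, 15 were called in ΔEcad lists only, 10 in female ΔEcad lists only and 2 in Ecad lists only. These counts include elements of a single list. Of the 28, 10 were called in 1 list each, several of them in Ma_1057 alone and both of the Ecad ones in Ma_1181 alone. Over all 59668 merged regions, 18.5% were called in ΔEcad lists only, 8.9% in female ΔEcad lists only and 26% in Ecad lists only. Introns held 17 of the 28, and 7 came within 1 kb of an annotated start, of which Tcf4 has 58.

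**Figure D2:**
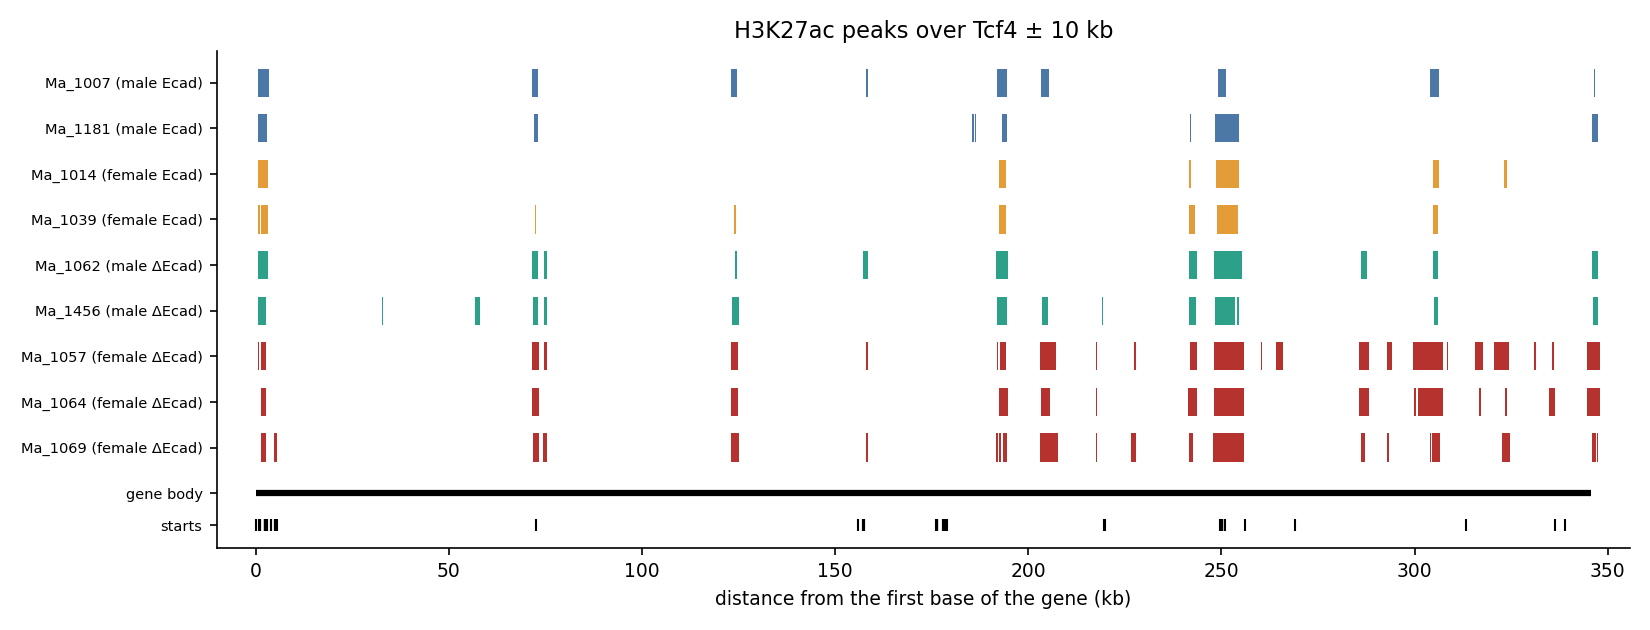
Peaks over Tcf4 and 10 kb on each side. The x axis is the distance from the first base of the gene in kb, each row is 1 line coloured by group, the thick line is the gene body and the ticks are annotated starts. Over the 3′ part of the gene the 3 female ΔEcad lines have 23.9 to 41.6 kb under peaks and the other 6 have 9.45 to 16.6 kb.

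The longest elements lay in the 3′ part. The element 252.0 kb into the gene, over a cluster of internal starts, was called in all 9 lists. It measured 7.89 to 8.03 kb in the 3 female ΔEcad lists, 7.13 and 6.04 kb in Ma_1062 and Ma_1456 and 2.16 to 6.32 kb in the Ecad lines. The best-ranked peak of each list in it lay at the 74.9th to 97.7th percentile of −log10 q in their lists. An element at 303.5 kb measured 7.72 kb in Ma_1057, 6.88 kb in Ma_1064 and 2.23 kb in Ma_1069, whereas the 5 other lists that called it had 1.07 to 2.29 kb. It ranked at the 98th percentile in Ma_1057 and at the 62nd or below in those 5 lists. An intronic element at 286.9 kb was called in the 3 female ΔEcad lists and Ma_1062 and in no Ecad list. A short intronic element at 217.7 kb, of 0.293 to 0.392 kb, was the only one called in exactly the 3 female ΔEcad lists, at percentiles of 7.69 to 14.

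Axl (chr7:25757273-25788705, minus strand) is a receptor tyrosine kinase of the TAM family. Its window held 13.5 kb in Ma_1007, 2.67 kb in Ma_1181, 7.34 kb in Ma_1014 and 7.67 kb in Ma_1039. The ΔEcad lines held 3.25 kb in Ma_1062, 5.93 kb in Ma_1456, 2.22 kb in Ma_1057, 2.80 kb in Ma_1064 and 4.23 kb in Ma_1069. The 2 male Ecad lines held the highest value and one of the lowest, and the groups overlapped. ΔEcad lines averaged 3.69 ± 1.45 kb (SD, n = 5) and Ecad lines 7.79 ± 4.43 kb (SD, n = 4), and the exact permutation p was 0.0794 (adjusted p = 0.339). Without Ma_1181 the exact p was 0.0179 and without Ma_1007 it was 0.214.

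Part of this length belonged to a neighbour. An element downstream of Axl at the start of Hnrnpul1, an RNA-binding protein gene, was called in all 9 lists, as were 13.7% of merged regions. Without peaks at other genes' starts, Axl had 8.85 kb in Ma_1007, 2.63 kb in Ma_1014, 3.97 kb in Ma_1039, 3.13 kb in Ma_1456 and 1.55 kb in Ma_1069, and 0 in the other 4 lists. The element centred 5.79 kb into the gene, printed above, measured 6.52 kb in Ma_1007, at the 91.2nd percentile of its list, and 1.67 to 3.13 kb in Ma_1014, Ma_1039 and Ma_1456, at the 39.4th to 66.4th. None of the 3 female ΔEcad lists called a peak within the body of Axl, and neither did the male Ecad line Ma_1181 or the male ΔEcad line Ma_1062.

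Loxl2 (chr14:69609068-69695834, plus strand) encodes a lysyl oxidase that cross-links collagen in the matrix. Its window held 11.3 kb in Ma_1007, 1.54 kb in Ma_1181, 1.56 kb in Ma_1014 and 3.78 kb in Ma_1039. Of the ΔEcad lines, Ma_1062 held 1.24 kb and the other 4 held none. Every Ecad line was above every ΔEcad line, a pattern shown in that direction by 6.39% of genes. The means were 4.54 ± 4.62 kb (SD, n = 4) and 0.25 ± 0.55 kb (SD, n = 5), and the exact p of 0.00794 was the smallest that 126 splits allow (adjusted p = 0.207). Without Ma_1007 the difference went from −4.29 to −2.05 kb, with an exact p of 0.0179. Female ΔEcad lines, all at 0, overlapped the other 6 lines through Ma_1456 (exact p = 0.167). Of the 7 Loxl2 elements, 6 were called in Ecad lists only, and 3 of those in Ma_1007 alone. The element 30.4 kb into the gene, printed above, measured 0.941 to 1.78 kb in the 4 Ecad lists, at percentiles of 19 to 67.3. None of the 7 lay within 1 kb of a start of Loxl2. The neighbour R3hcc1 had a promoter call in 2 lists.

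Tnc (chr4:63959785-64047015, minus strand) encodes tenascin C, a matrix glycoprotein. It had 1 element, 44.6 kb into the gene, with 1.72 kb in Ma_1014, 0.85 kb in Ma_1039, 0.58 kb in Ma_1007 and 1.04 kb in Ma_1456. The other 5 lists, among them the 3 female ΔEcad ones, had no peak over Tnc. The difference between ΔEcad and Ecad lines was −0.58 kb (exact permutation p = 0.167).

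**Figure D3:**
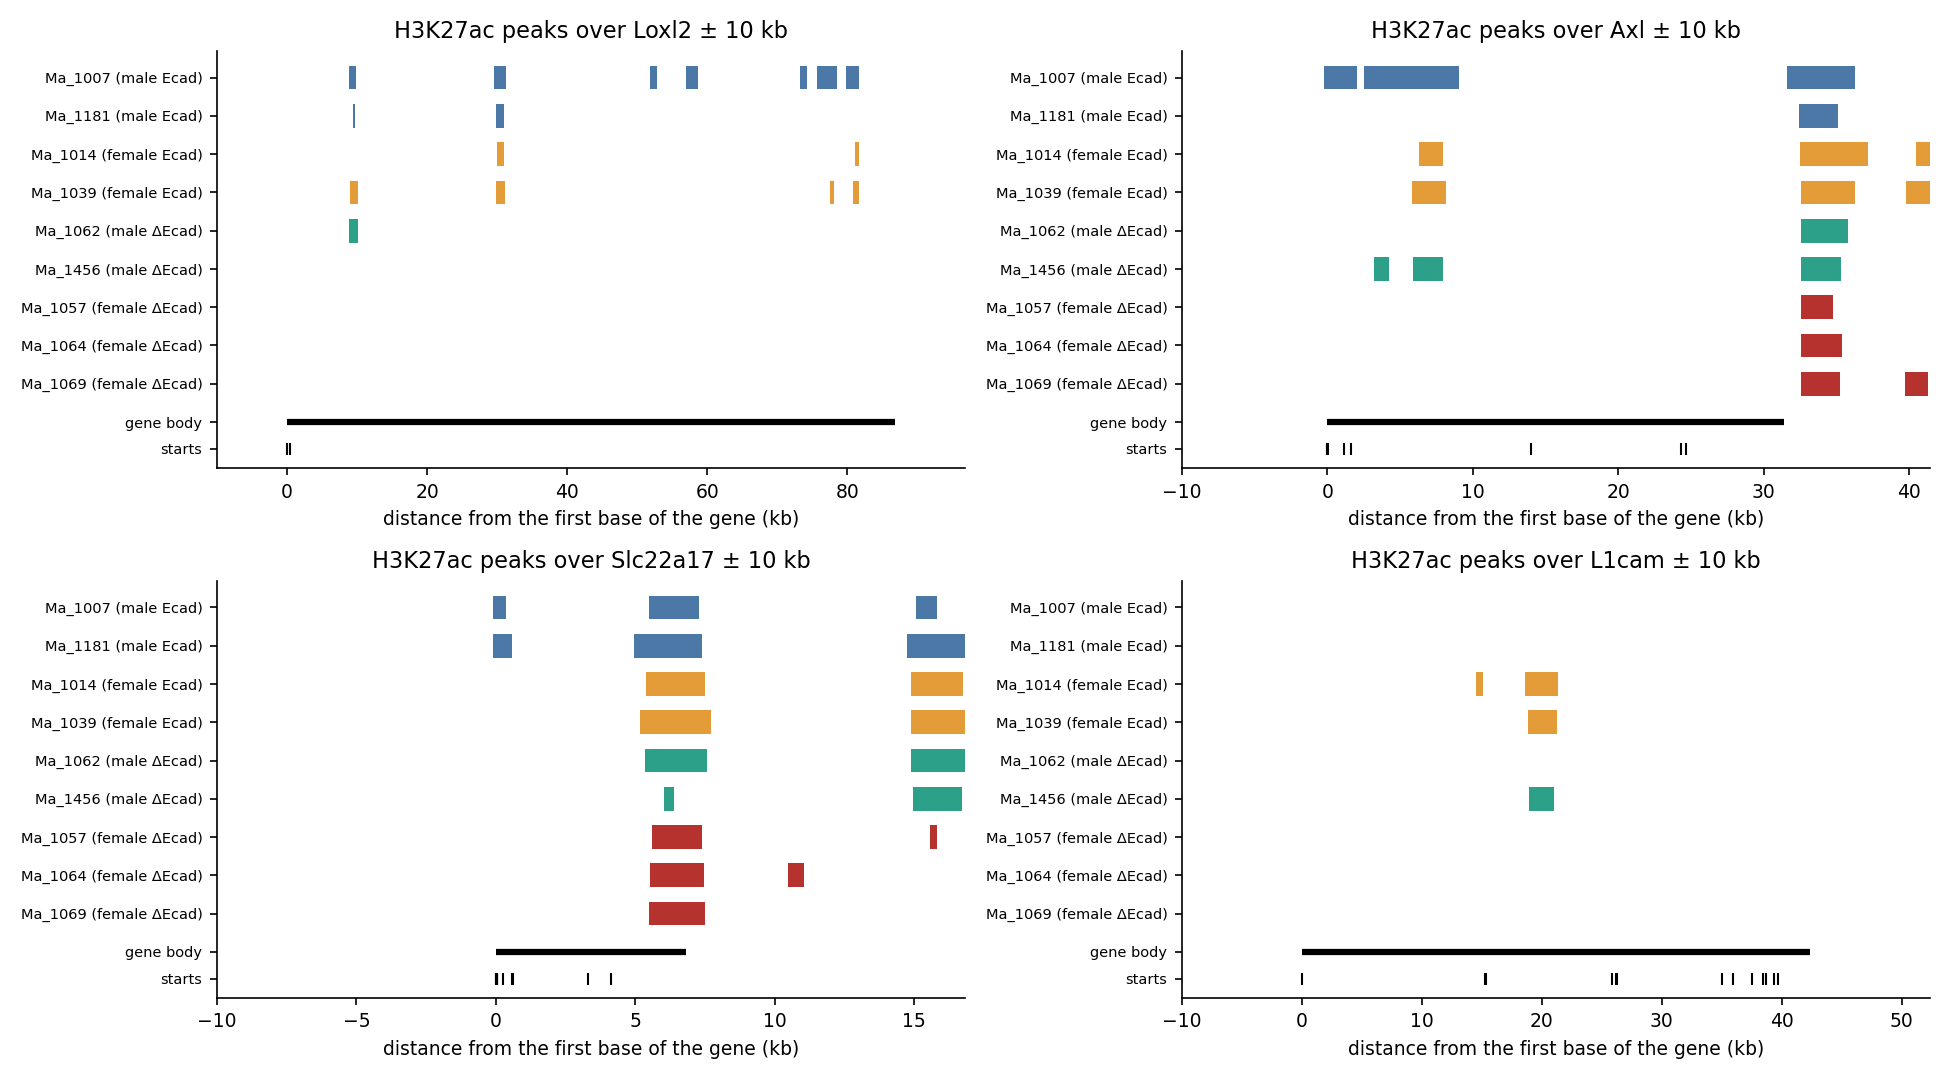
Peaks over Loxl2, Axl, Slc22a17 and L1cam and 10 kb on each side, by distance in kb from the first base of the gene (x axis). Rows, colours, gene body and start ticks are as in the map of Tcf4. Loxl2 peaks are absent from 4 of the 5 ΔEcad lists, and the block of peaks downstream of Axl, present in all 9 lists, is at the start of Hnrnpul1.

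Among the neural crest-like genes, Ngfr (chr11:95568818-95587735, minus strand), the p75 neurotrophin receptor, and Gfra2 (chr14:70890120-70979838, plus strand), a co-receptor for neurturin, had no peak in any list. Aqp1 (chr6:55336432-55348555, plus strand), a water channel, had 0.296 kb in Ma_1456 and 0.601 kb in Ma_1069, both downstream of the gene, and none in the other 7 lists. L1cam (chrX:73853778-73896105, minus strand), a neural cell adhesion molecule, had 3.33 kb in Ma_1014, 2.44 kb in Ma_1039 and 2.06 kb in Ma_1456, and none in the other 6. The L1cam intronic element was among the upper part of these lists, at percentiles of 64.8 to 83.2. Ma_1014 added a peak of 0.56 kb at the start that RefSeq uses. Of the neighbours of L1cam, Arhgap4 had a promoter call in 3 lists and Avpr2 in none.

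The L1cam window was covered in both female Ecad lines and in none of the female ΔEcad ones. In males the covered line was ΔEcad. The effect of ΔEcad was −2.88 kb in females and 1.03 kb in males, a difference of −3.91 kb with an exact p of 0.05 over the 60 splits within sex. These splits exchange ΔEcad and Ecad lines within each sex. The p therefore refers to no effect in either sex, and equal effects in the sexes were not tested. Of the 15380 genes, 5.82% had a p below 0.05 in these splits, and L1cam, at 0.05, was not one of them. Within females alone, with 10 splits and a smallest p of 0.1, the 3 ΔEcad lines were below both Ecad lines at Axl, Loxl2, Tnc, L1cam and Slc22a17 and above them at Tcf4. Over all tested genes, 43.5% were lower and 5.21% higher within females without overlap. Within males Tcf4 was higher and Loxl2 lower in both ΔEcad lines, where 5.9% of genes were higher and 26% lower without overlap, at the smallest p that 6 splits allow.

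Slc22a17 (chr14:54906304-54913132, minus strand) encodes a receptor for lipocalin 2. Its window held 3.01 kb in Ma_1007, 5.24 kb in Ma_1181, 4.01 kb in Ma_1014 and 4.48 kb in Ma_1039. It held 4.13 kb in Ma_1062 and 2.105 kb in Ma_1456. It held 2.04, 2.53 and 2.01 kb in Ma_1057, Ma_1064 and Ma_1069. Only Ma_1062 among the ΔEcad lines reached the range of the Ecad lines. The means were 2.56 ± 0.90 kb (SD, n = 5) and 4.19 ± 0.93 kb (SD, n = 4) (exact permutation p = 0.0397, adjusted p = 0.273). An unadjusted exact p under 0.05 with the lower value in ΔEcad was found at 17.2% of genes and at Loxl2 and Slc22a17 among the 8 genes with a peak. As a share of list length the difference at Slc22a17 was −0.88 kb, with an exact p of 0.33. Without any one line other than Ma_1062, its exact p was between 0.0536 and 0.125. Part of the window lay under an element at the start of the neighbour Pabpn1, called in all 9 lists. In Ma_1064 and Ma_1069 its peaks lay outside the window. Without peaks at other genes' starts, Slc22a17 had 2.2 kb in Ma_1062 and was unchanged in the other lines. The ΔEcad lines then had 2.008 to 2.528 kb and the Ecad lines 3.013 to 5.237 kb, without overlap. In that setting 806 of 14599 genes were lower in ΔEcad without overlap. An element over the 3′ end of Slc22a17 was also called in all 9, at percentiles of 35.8 to 89.3. The element at the main start was called in the male Ecad lists alone, at percentiles of 50.7 and 49.2.

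Tmem176b (chr6:48833818-48841496, minus strand) encodes a membrane protein of the MS4A-like family and shares its promoter region with Tmem176a. Its single element measured 2.69 kb in Ma_1007, 1.46 to 1.76 kb in the other Ecad lines, 0.94 and 1.92 kb in the male ΔEcad lines and 1.18 to 1.86 kb in the female ΔEcad lines. These ranges overlapped (exact permutation p = 0.317 for ΔEcad against Ecad). Peaks of this element ranked at the 63.1st to 94.8th percentile of their lists, and the Tmem176a promoter was called by the same element in all 9.

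**Figure D4:**
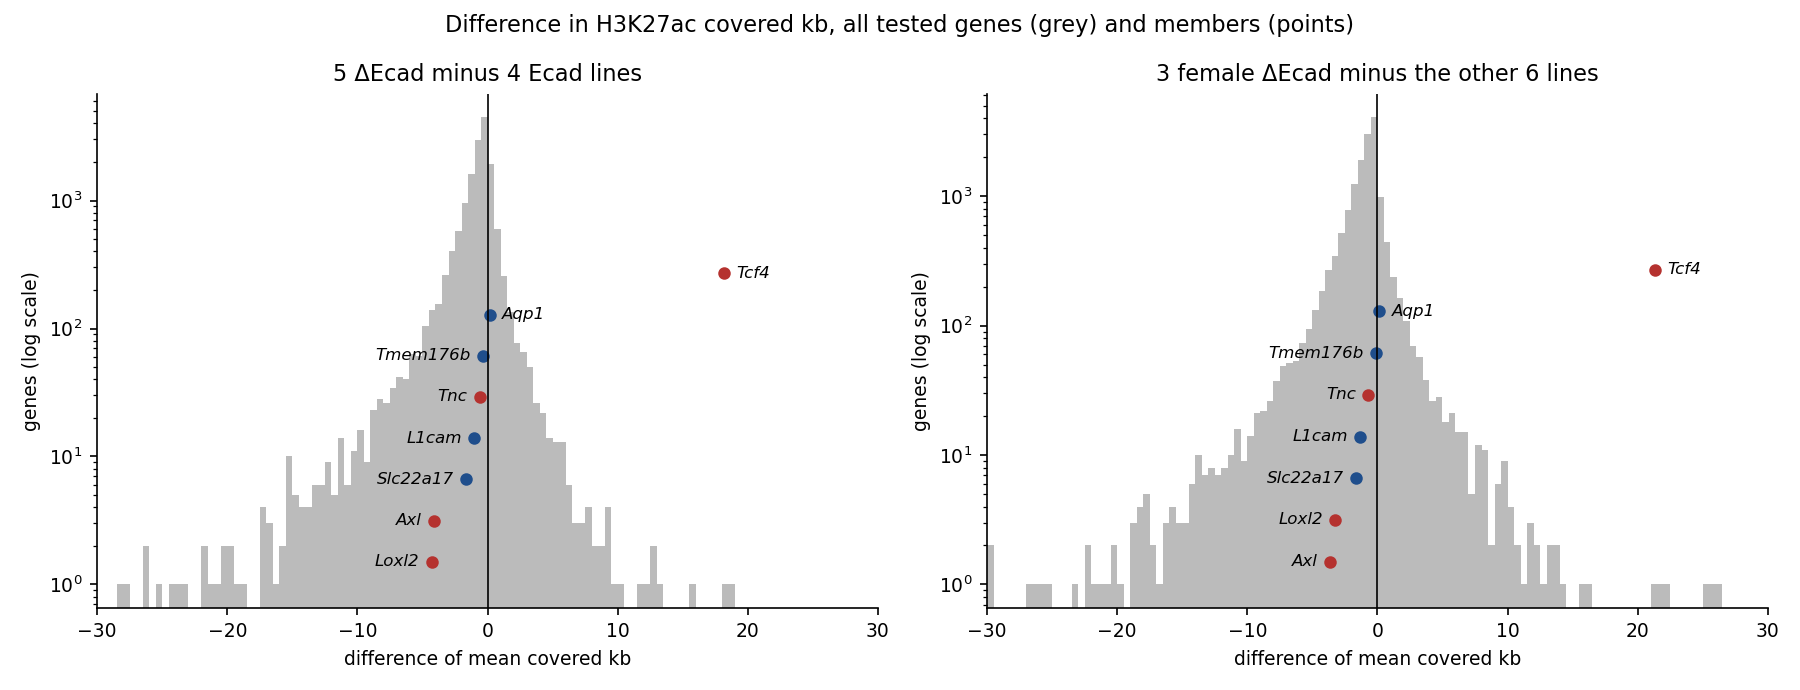
Differences in mean covered kb (x axis) between ΔEcad and Ecad lines (left) and between female ΔEcad lines and the other 6 (right). Grey bars count all 15380 tested genes on a log axis, except 6 genes in each contrast beyond 30 kb, and points mark invasive (red) and neural crest-like (blue) genes with a peak, at heights chosen for legibility. Tcf4 lies far to the right of the bulk and the other genes lie near or left of 0. Differences are in kb and are not scaled to window length, which was greatest for Tcf4 among the genes examined.

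Between female ΔEcad lines and the other 6, Tcf4 was the only one of the 8 genes whose groups did not overlap. Groups did not overlap, with female ΔEcad lower, at 21.9% of genes, and an unadjusted exact p under 0.05 in that direction was found at 25.1%. None of the 8 was in either set. Between female and male lines none of the 8 separated, where 0.137% of genes were higher and 4.85% lower in females without overlap. None had an unadjusted exact p under 0.05, where 0.293% were higher and 11.9% lower in females at that level. Tcf4 averaged 28.2 ± 15.1 kb in females (SD, n = 5) and 18.9 ± 4.80 kb in males (SD, n = 4), with an exact permutation p of 0.302. No promoter of the 10 genes had an unadjusted Fisher p under 0.05 in any contrast. None could have, because each was called in 0, 1, 2 or 9 of the 9 lists, which is too few or too many for such a p. Of the 6985 promoters called in 1 to 8 lists, 9.46% had a Fisher p under 0.05 for ΔEcad against Ecad. The share was 14% for female ΔEcad against the other lines and 5.11% for female against male. These shares therefore cannot be set against the 10 genes. By the exact permutation test 0 genes passed an adjusted p of 0.05 in the 3 contrasts, with 2684, 4086 and 1880 genes at an unadjusted p under 0.05. By limma 48, 2913 and 6 genes passed.

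Tcf4 made up most of the summed covered kb of the invasive genes. The 4 invasive genes summed to 36.3 ± 9.003 kb in ΔEcad (SD, n = 5) and 27.1 ± 10.1 kb in Ecad lines (SD, n = 4). With 50 kb on each side the difference was 0.9993 kb. Without Tcf4, and with 10 kb, the other 3 summed to 4.14 ± 1.84 kb and 13.1 ± 8.86 kb. The 6 neural crest-like genes summed to 4.70 ± 1.08 kb in ΔEcad and 7.54 ± 1.61 kb in Ecad lines, and to 3.78 to 4.38 kb in the female ΔEcad lines. No test was made on these sums.

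Genes linked to these 10 gave a broader view. Of 24 further invasive-state genes, 19 had a peak, and 5 to 9 of their promoters were called in each list. Between ΔEcad and Ecad lines 6 of the 19 were longer and 13 shorter in ΔEcad, with a median of −0.33 kb against −0.50 kb over all genes. Of the 19, 1 separated these groups, against 6.39% of all genes lower in ΔEcad. It was Vim, the intermediate filament gene vimentin, at 4.64 to 5.64 kb in ΔEcad and 6.23 to 7.25 kb in Ecad lines. Fosl1, an AP-1 subunit, separated the female ΔEcad lines, at 0.845 to 1.43 kb against 1.88 to 3.81 kb in the others, as Vim did at 4.64 to 5.06 kb against 5.07 to 7.25 kb. These 2 of 19 stand beside 21.9% of all genes. On average 14 of the 19 were lower and 5 higher in the female ΔEcad lines.

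Of 24 further neural crest-related genes, 22 had a peak, and 13 to 18 promoters were called in each list. ΔEcad lines were shorter at 15 and longer at 7, with a median of −0.64 kb. Of the 22, 3 separated ΔEcad from Ecad lines, all lower in ΔEcad, against 6.39% of all genes. Sox10, the lineage factor of melanocytes and glia, had 13.4 to 23.2 kb against 23.8 to 24.5 kb. Erbb3, a neuregulin receptor, had 4.96 to 11.3 kb against 11.7 to 14.3 kb. Id1, which binds E-proteins and blocks their pairing, had 0 to 5.43 kb against 5.50 to 9.05 kb. The female ΔEcad lines also lay below the other 6 at these genes and at Pax3 and Gfra3, which makes 5 of 22 beside 21.9% of all genes, a share near the background. On average 17 of the 22 were lower and 5 higher in the female ΔEcad lines. An unadjusted exact permutation p under 0.05 was found at 5 of the lower genes and 1 of the higher ones, beside 25.1% and 1.47% of all genes. Pax3, a neural crest transcription factor, averaged 64.5 kb against 84.9 kb, and Gfra3, a co-receptor for artemin, was at 0 against 0.38 to 2.85 kb. Of the 10 melanocytic markers, 2 were lower in the same 3 lines without overlap, again near the share of all genes. They were the pigment genes Dct and Pmel, at 7.41 to 8.43 kb against 16.6 to 36.2 kb and at 2.06 to 4.30 kb against 4.84 to 15.6 kb. On average 7 of the 10 markers were lower and 3 higher in these lines. Among the higher ones, Mlana averaged 13.3 kb against 7.62 kb in the other 6 lines, with overlap (unadjusted exact permutation p = 0.0357). Mlana was also longer in female than in male lines without overlap, as were 0.137% of all genes. Of the 5 fibroblast markers with a peak, Col1a1 had 1.56 to 3.97 kb in ΔEcad and 4.06 to 4.28 kb in Ecad lines. Pdgfra had 1.03 to 2.72 kb and 3.04 to 6.39 kb, beside 6.39% of all genes lower in ΔEcad without overlap. Both were lower in the female ΔEcad lines without overlap, beside 21.9% of all genes. On average 4 of the 5 were lower and 1 higher in those lines. The leukocyte marker Cd68 had 2.39 to 3.34 kb in female ΔEcad lines and 4.62 to 8.48 kb in the others, where 21.9% of all genes were lower without overlap. Of the 3 leukocyte markers with a peak, 2 were lower and 1 higher on average in female ΔEcad lines. The part of these markers in the other results was not tested.

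Of 33 ligands, receptors and partners of the 10 genes, 26 had a peak, and 8 had a promoter call in all 9 lists while 15 had none, near the shares of all genes, 21.1% and 47.1%. Around Axl, the ligand gene Gas6 was called in 2 Ecad lists and no ΔEcad list, the ligand gene Pros1 in 7 lists, and the related receptor genes Tyro3 in 3 Ecad lists and Mertk in 8 lists. Calls in Ecad lists only were common, at 26% of all merged regions, and no such share was taken over promoters. Around Ngfr, the neurotrophin gene Ntf3 and the receptor gene Ntrk2 had no promoter call, Bdnf was called in 4 lists, Maged1 in 6 and the co-receptor gene Sort1 in 9. Gdnf, Nrtn and Ret, which act with GFRA2 or its relatives, had no call. Of the Tcf4 partners, Tcf3, Tcf12 and Id2 were called in 9 lists and Id1 and Id3 in 8. Chl1 was called in 8 lists and Nrp1 in 7, Loxl3 in 9 and Lox, Loxl1 and Loxl4 in none, and the integrin genes Itgav and Itgb3 in 9. Cntn1, Lcn2, Tnxb, Aqp3 and Aqp5 had no call.

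Of the 26, 4 were lower in ΔEcad than in Ecad lines without overlap, against 6.39% of all genes, and 6 were lower in female ΔEcad lines than in the others, near the 21.9% of all genes. Tyro3 had 0 to 2.88 kb in ΔEcad and 3.32 to 4.93 kb in Ecad lines, and Id2 had 3.75 to 7.68 kb and 8.39 to 9.76 kb. Nrtn had 0.467 to 1.11 kb and 1.29 to 1.49 kb. Sort1 had 14.4 to 18.8 kb in female ΔEcad lines and 22.3 to 30.15 kb in the other 6, and Cntn1 and Tcf3 lay lower there as well, as did Id1, Id2 and Nrtn. Between the sexes, Pros1 had 0 to 1.14 kb in female and 2.05 to 4.47 kb in male lines. It was the only 1 of the 26 lower in females without overlap, beside 4.85% of all genes.

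Other genes shared the promoter patterns. The Axl pattern, a call in Ma_1007 alone, was shared by 544 genes, and covered kb over the 9 lines was most like that of Axl at Abcb1a (Pearson r = 0.973), Herc6 (r = 0.963) and Ppm1m (r = 0.95). The Slc22a17 pattern was shared by 312 genes, with Vangl1 (r = 0.938), Spag1 (r = 0.921) and Prim2 (r = 0.882) most alike. The L1cam pattern was shared by 110 genes, with Oaf (r = 0.944), Slc44a5 (r = 0.922) and Orai2 (r = 0.917) most alike. These correlations are over the 9 lines, whose values all carry the length of their lists, and describe likeness only.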

How the data were processed

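H3K27ac ChIP–seq was made by the authors on 9 lines, mapped to GRCm38/mm10 with Bowtie2, and deposited as 1 narrowPeak list per line. The submitters' notes name Bowtie2 2.4.5, MACS2 2.2.7.1 and deepTools 3.5.1.0.0. Peaks were called per line, and peak-calling settings and the input used for each list are not given in the sources used here. As deposited, each peak has a score, a fold enrichment over background, and a −log10 p-value and −log10 q-value, the lowest −log10 q in the lists being 5. The 4 input samples were not analysed here. Depth is unknown, which leaves counting precision unknown.

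Covered kb and promoter calls (peak within 1 kb of a start) were computed for 21951 protein-coding genes of GENCODE M21, with overlap of at least 1 bp. A percentile is the rank of a peak's −log10 q within its own list. Groups were compared with two-sided exact permutation tests and promoters with Fisher's exact test, adjusted by Benjamini-Hochberg over all genes with a peak (15380) or all promoters called in 1 to 8 lists (6985), with a threshold of 0.05. p-values measure the spread between lines, each 1 culture. The calculation was tested on simulated data. Alternatives were limma on log2(kb + 0.5), lists of equal length, −log10 q of at least 10, other windows and promoter distances, scaling by list length, and leaving out each line. Motif letters were counted on both strands. RefSeq promoters matched 7 of the 10 genes. Python 3.11.15, numpy 2.4.6, pandas 2.3.3, scipy 1.17.1, pysam 0.24.0, matplotlib 3.10.9, R 4.3.3 and limma 3.58.1 were used.

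The 10 genes and the wider lists were chosen with earlier results of these data known. All 10 genes are named. Others are named where a start lay in a window, where a listed gene separated groups without overlap (at most 6 a contrast), as a ligand or partner, or, up to 3 a gene, as most alike on another chromosome. Pabpn1 and Cdh1 were named outside this rule, Pabpn1 after the peaks were seen. The promoter calls of some listed partners are not reported here.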

Additional observations from a re-analysis of the deposited data

Results flagged for a closer look

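In 12 of 39 groups of 4 to 6 lines, 1 line stood apart from the rest of its group by Dixon's test of the gap to the nearest value. Chance does so in about 1 of 20 groups, but in 7 of the 12 every other line of the group was at 0, where any covered line stands apart and that rate does not apply. The 39 groups also share lines, so 1 value can count in several groups, and they cannot be set against that rate as independent groups. Ma_1007 stood apart at Tcf4 among the Ecad lines, with 16.02 kb, and at Loxl2 among the male lines and among the 6 lines that are not female ΔEcad, with 11.28 kb in both cases. Ma_1062 stood apart among the ΔEcad lines at Loxl2, with 1.238 kb, and at Slc22a17, with 4.133 kb. Ma_1456 stood apart at Tnc among the ΔEcad lines, with 1.039 kb, at L1cam among the ΔEcad and among the male lines, with 2.058 kb, and at Aqp1 among the male lines and among the 6 lines that are not female ΔEcad, with 0.296 kb. Ma_1069 stood apart among the female lines at Aqp1, with 0.601 kb, and at Tmem176b, with 1.175 kb. The 7 were Loxl2, Tnc and L1cam among the ΔEcad lines, L1cam among the male lines and the 3 groups at Aqp1.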

How the results depend on the processing

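No paired analysis was possible because the labels give no replicate numbers that are shared between groups. No gene of the 10 passed an adjusted p of 0.05 under any alternative except Tcf4 by limma between female ΔEcad lines and the others (1.17 on the log2 scale, adjusted p = 0.019). Leaving out 1 line at a time, Tcf4 differed by 14.1 to 20.5 kb between ΔEcad and Ecad lines and by 16.3 to 24.7 kb between female ΔEcad lines and the others. By limma 48, 2913 and 6 genes passed the threshold between ΔEcad and Ecad, female ΔEcad and other, and female and male lines, against 0 in the exact test. With 50 kb on each side, the neural crest-like sum differed by −10.28, −10.89 and −3.605 kb in these contrasts and the invasive sum by 0.9993, 5.737 and 0.1304 kb, against 9.18, 13.75 and 5.553 kb with 10 kb. With 50 kb, between the sexes Tnc, Aqp1 and L1cam reversed to −0.3231, −0.0718 and −0.8038 kb. Scaled by list length, the invasive sum differed by 20.2 and 27.32 kb in the first and second contrasts and the neural crest-like sum by −1.456 kb in the second. On that scale Tmem176b reversed to 0.1284, 0.4477 and 0.339 kb, and Axl to 0.09757 kb between the sexes. With promoters within 2.5 kb, ΔEcad lists called 0.25 fewer neural crest-like promoters (difference −0.25). Leaving out 1 line at a time reversed some small differences. Between female ΔEcad lines and the others, Aqp1 ranged from −0.04933 to 0.2512 kb and Tmem176b from −0.2964 to 0.08483 kb. Between the sexes, Axl ranged from −2.701 to 0.9017 kb, Loxl2 from −3.618 to 0.1431 kb, Tnc from −0.193 to 0.3192 kb, Aqp1 from −0.074 to 0.1202 kb and Tmem176b from −0.3601 to 0.2219 kb. The lines whose omission reversed them were Ma_1007 (Axl, Loxl2, Tmem176b), Ma_1069 (Aqp1, Tmem176b) and Ma_1181, Ma_1014 and Ma_1062 (Tnc). The cause was not tested. Unknown depth and 2 or 3 lines per genotype and sex limit all of these comparisons.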

Other observations

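Ngfr had no peak within 10 kb, but with 50 kb on each side its window held 3.41 kb in Ma_1007, 1.74 kb in Ma_1181, 3.31 kb in Ma_1014 and 3.26 kb in Ma_1039. It held 0.93 kb in Ma_1062, 2.42 kb in Ma_1456, 0.761 kb in Ma_1057, 1.32 kb in Ma_1064 and 0 in Ma_1069. These peaks lie among other genes and were not assigned to Ngfr.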
